A study of Mus musculus with 8 samples.

Results

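Glycogen is the branched glucose store of the liver, and its turnover is set by a small group of enzymes and by the regulatory subunits that bring protein phosphatase 1 to the glycogen particle. The 9 genes described here belong to that group: the Ppp1r3 targeting subunits Ppp1r3b, Ppp1r3c, Ppp1r3d and Ppp1r3g, the liver glycogen synthase Gys2, the branching enzyme Gbe1, the UDP-glucose pyrophosphorylase Ugp2, the liver glycogen phosphorylase Pygl and the phosphorylase kinase subunit Phka2. They were taken by gene name, and they are 9 of the 27670 genes and 15 of the 41174 probes on the array. The set was chosen from measured values, because Ppp1r3g showed opposite differences between genotypes on vehicle and after treatment. The differences between genotypes are therefore given for these genes as a description, with no test.

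Liver RNA of C57BL/6 mice, labelled as female and 6 months old, was hybridised to 8 one-colour Agilent arrays, 2 for each of 4 groups. KO ENU mice carried an Albumin-Cre transgene with 2 floxed Dicer1 alleles and received 120 mg/kg of ENU (N-ethyl-N-nitrosourea), an alkylating mutagen, by intraperitoneal injection 15 days before measurement. WT ENU mice were Dicer1 loxP/loxP littermates given the same dose. KO vehicle and WT vehicle mice had the same genotypes and received dimethylsulfoxide in the same volume of 2 ml/kg, with no day given for their measurement. All 4 groups thus carried the floxed allele. The albumin promoter directs Cre to hepatocytes, so other liver cells retain Dicer1, the ribonuclease that matures microRNAs. The comparisons ask what Dicer1 loss in hepatocytes and an ENU exposure did to transcript levels. How many mice contributed to an RNA sample is not given in the labels.

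The 2 arrays of a group differed by no more than the noise between repeated spots, with a median absolute standardised difference of 0.672 to 0.838, while arrays of different groups gave 12.5 to 27.2. They were counted as repeat arrays of 1 RNA sample, which leaves 4 RNA samples. A comparison of 1 group with another has no replicate check, and here "higher" and "lower" with no fold beside them mean a difference of 2-fold or more between 2 such samples. The words "rose" and "fell" are used only for genes past the threshold of adjusted p under 0.05 in limma, fitted to the 4 RNA samples as an additive model of genotype and treatment, with 1 residual degree of freedom and Benjamini-Hochberg adjustment over 18171 genes. All ENU arrays lay on 1 slide and all vehicle arrays on the other, and the effects of slide and ENU cannot be told apart. On both slides KO arrays lay at other positions than WT arrays, and position cannot be told apart from genotype.

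Levels are log2 of the processed signal over the 75th percentile of the array, so 0 is the level of that percentile. They do not compare one probe with another, since probes differ in brightness for the same amount of RNA. The share of spots well above background was 54.7% to 69.3% per array, and 0 spots were saturated. The Dicer1 probe A_51_P333060 read -3.94 and -4.10 in KO ENU, -2.61 and -2.40 in WT ENU, -4.13 and -4.50 in KO vehicle and -1.92 and -1.80 in WT vehicle. Both KO samples lay below both WT samples on it, by 2.85-fold after ENU and 5.5-fold on vehicle. The brighter Dicer1 probe, A_51_P483059, read 0.17 and 0.17 in KO ENU, 0.42 and 0.42 in WT ENU, 0.62 and 0.63 in KO vehicle and 1.17 and 1.08 in WT vehicle. On it KO lay below WT within each treatment by only 1.19-fold and 1.41-fold, and KO vehicle lay above WT ENU. Whether either probe lies in a deleted exon is unknown, since the labels give no exon. Probes of all 4 Y-linked genes looked at were well above background on all 8 arrays, although the mice are labelled female.

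In the hepatocyte, Slc2a2 carries glucose across the membrane. Once it is phosphorylated, phosphoglucomutase and Ugp2 turn it into UDP-glucose, which Gys2 adds to growing chains that Gbe1 branches. Pygl releases glucose 1-phosphate from the chains once it is phosphorylated by phosphorylase kinase, whose liver alpha subunit is Phka2. Protein phosphatase 1, tethered by the Ppp1r3 subunits, removes phosphate from both enzymes, which favours synthase activity over phosphorylase activity.

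All 15 probes of the 9 genes passed the filter on dim probes, and 12 of them were well above background on all 8 arrays. In KO relative to WT after ENU, 2 of the 9 genes were higher and 5 were lower, where 16.2% and 14.2% of the 18171 genes were. The median of the 9 differences was -1.04 log2 after ENU, against -0.10 for all genes. On vehicle, 1 of the 9 was higher in KO and 6 were lower, where 17.3% and 11.1% of all genes were, and the median was -1.30 log2 against -0.14. Ppp1r3b, Ppp1r3c, Gys2 and Gbe1 were lower in both pairs, which 7.54% of all genes were, and Ppp1r3d was higher in both, which 12.8% were. Since genotype differences chose the set, nothing is read from these shares.

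**Figure D1:**
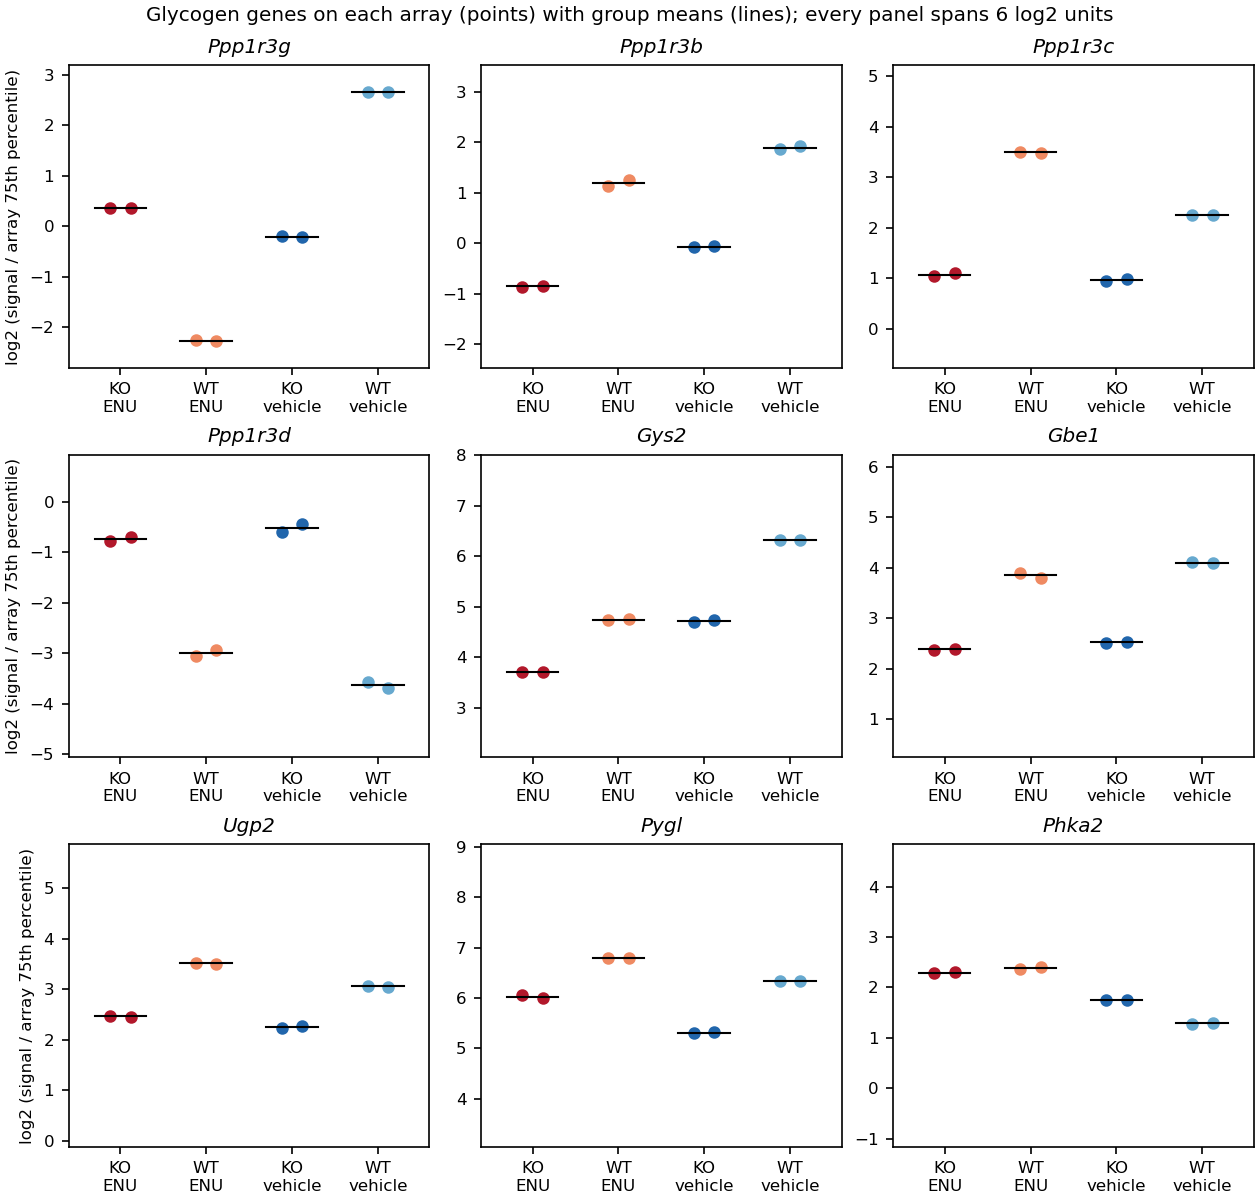
Log2 level over the array's 75th percentile (y axis) of the 9 glycogen genes in KO ENU, WT ENU, KO vehicle and WT vehicle (x axis); points are the 2 arrays of a group, lines their mean, and every panel spans the same number of log2 units. Ppp1r3g has KO above WT after ENU and below WT on vehicle, and Phka2 has the opposite turn within 2-fold. KO lies below WT in both pairs for Ppp1r3b, Ppp1r3c, Gys2, Gbe1, Ugp2 and Pygl and above WT for Ppp1r3d.

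Ppp1r3g encodes a targeting subunit found mainly in liver, whose transcript is known in mice to increase on fasting. Its 1 probe, A_51_P155873, lies on chromosome 13 at chr13:35386816-35386875 on the plus strand of mm7. It read 0.37 and 0.37 in KO ENU and -2.26 and -2.27 in WT ENU. It read -0.20 and -0.21 in KO vehicle and 2.66 and 2.65 in WT vehicle. WT vehicle was the highest of the 4 groups and WT ENU the lowest, both KO groups lay between them, and no groups overlapped. KO minus WT was 2.63 ± 0.012 log2 after ENU (SD of the repeat arrays, 2 per group), or 6.20-fold higher in KO. On vehicle KO minus WT was -2.86 ± 0.010 log2, or 7.27-fold lower in KO.

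Read by treatment, the same values separate the genotypes. ENU minus vehicle was 0.57 log2 in KO, below the 2-fold limit, and -4.92 log2 in WT, where the ENU sample was 30.4-fold lower than the vehicle sample. The difference between these differences was 5.49 log2. Of the 18171 genes, 5 had one of larger size. A genotype difference that was lower by 2-fold or more on vehicle and higher by 2-fold or more after ENU was seen in 22 genes, or 0.121%, and the opposite turn in 33 genes, or 0.182%. With 1 RNA sample a group, no test separates this from the spread between animals.

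**Figure D2:**
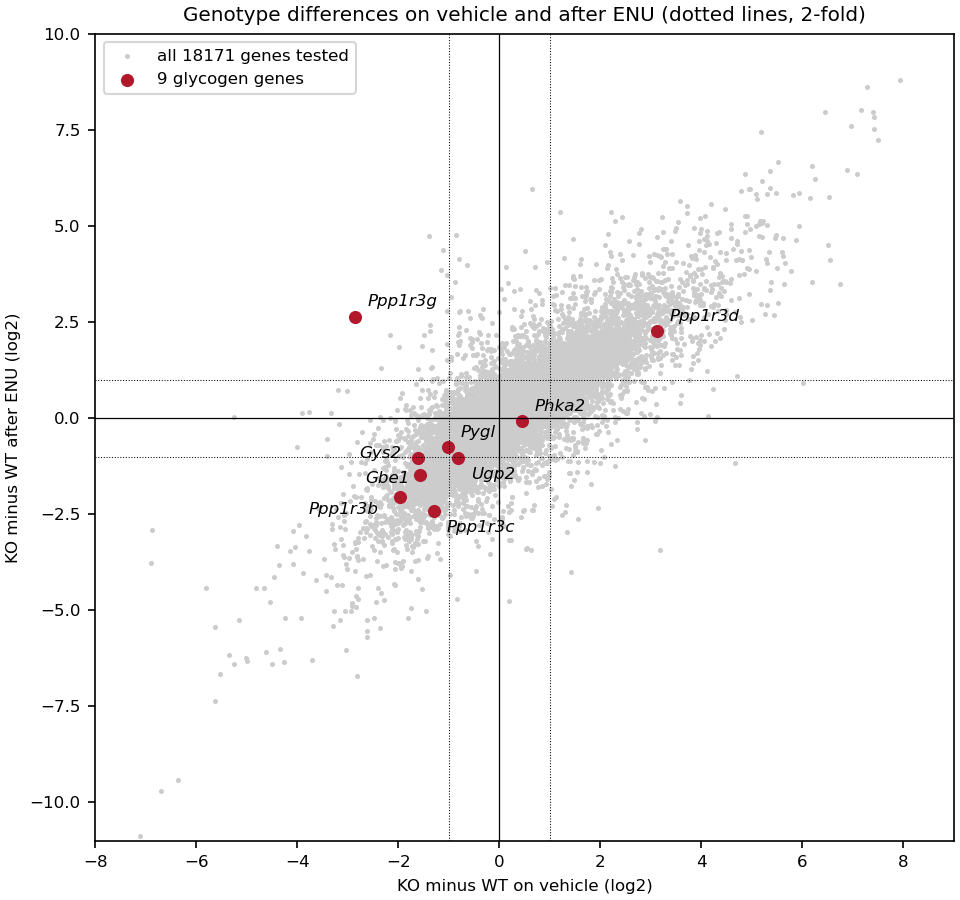
KO minus WT after ENU (y axis, log2) against KO minus WT on vehicle (x axis, log2) for the 18171 genes tested (grey) and the 9 glycogen genes (red); dotted lines mark 2-fold. Ppp1r3g lies in the upper left, at 2.63 after ENU and -2.86 on vehicle, Ppp1r3d in the upper right, at 2.26 and 3.12, and the other genes apart from Phka2 in the lower left.

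Ppp1r3b encodes GL, the principal glycogen-targeting subunit of liver. Its 1 probe, A_51_P138933 at chr8:34152525-34152584 on the plus strand, read -0.86 and -0.85 in KO ENU, 1.14 and 1.26 in WT ENU, -0.08 and -0.07 in KO vehicle and 1.86 and 1.92 in WT vehicle. Both KO samples lay below both WT samples, and in each genotype the ENU sample lay below the vehicle sample. KO minus WT was -2.06 ± 0.084 log2 after ENU and -1.97 ± 0.041 on vehicle, or 4.16-fold and 3.91-fold lower. ENU minus vehicle was -0.78 in KO and -0.69 in WT. Of the 4 subunits, Ppp1r3b had the genotype differences closest to each other in the 2 treatments.

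Ppp1r3c encodes PTG, a targeting subunit made in many tissues that binds glycogen synthase and phosphorylase as well. The brighter of its 2 probes, A_52_P30451 at chr19:36432652-36432711 on the minus strand, read 1.04 and 1.11 in KO ENU, 3.50 and 3.49 in WT ENU, 0.94 and 0.98 in KO vehicle and 2.26 and 2.26 in WT vehicle. The 2 KO samples lay close together and below both WT samples, and WT ENU was the highest. The genotype difference was -2.42 ± 0.051 log2 after ENU and -1.30 ± 0.022 on vehicle, or 5.36-fold and 2.46-fold lower. ENU minus vehicle was 0.11 in KO and 1.23 in WT, the opposite side of 0 from Ppp1r3g in WT. The second probe, A_51_P521010 at chr19:36433982-36434041, read -3.41 and -3.50 in KO ENU, -0.64 and -0.82 in WT ENU, -4.50 and -4.13 in KO vehicle and -2.75 and -2.95 in WT vehicle. It gave the same order of KO and WT, with differences of -2.73 log2 after ENU and -1.46 on vehicle, and it separated the ENU and vehicle samples further, by 0.86 in KO and 2.12 in WT.

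Ppp1r3d encodes R6, a targeting subunit of wide tissue distribution, and was the member that differed in the other direction. Its 1 probe, A_51_P169516 at chr2:178912202-178912261 on the minus strand, read -0.78 and -0.69 in KO ENU, -3.05 and -2.94 in WT ENU, -0.60 and -0.44 in KO vehicle and -3.58 and -3.69 in WT vehicle. Both KO samples lay above both WT samples, and the probe was dim in WT, where it was well above background on 1 of the 2 vehicle arrays. KO minus WT was 2.26 ± 0.102 log2 after ENU and 3.12 ± 0.139 on vehicle, or 4.79-fold and 8.67-fold higher. With normexp background correction these differences were 1.44 and 1.87. ENU minus vehicle was -0.22 in KO and 0.64 in WT.

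The array also carried the remaining members of the family. Ppp1r3a, the skeletal muscle subunit, had its brightest probe well above background in both KO groups, on 1 of 2 arrays in WT ENU and on neither in WT vehicle, and KO minus WT was 0.07 after ENU. Its sign was negative under quantile normalisation, median centring and normexp. Ppp1r3f was well above background in KO ENU only, and was at least 4.38-fold higher in KO ENU than in WT ENU on the processed signal, whereas with normexp the difference was -0.02 log2. Ppp1r3e was not well above background on any array. Ppp1ca, Ppp1cb and Ppp1cc, the 3 catalytic subunits that these proteins bind, did not pass the limma test for genotype (adjusted p = 0.32, 0.54 and 0.41), with average differences of -0.26, -0.17 and 0.26 log2.

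Promoter windows were read for the family because its members differed in opposite directions. RefSeq windows of GRCm38.p6, from 250 bases before to 50 bases after the start of the gene, were at hand for 7 of the 9 genes, as 8 windows. None was at hand for Ppp1r3b and Gys2, which were therefore not searched. The E-box CACGTG, a palindrome that clock and other helix-loop-helix factors can bind, was searched on both strands, as was TTATGNAA, a D-box form that Dbp and Nfil3 can bind. The E-box was in 2 of the 8 windows, those of Ppp1r3c and Ppp1r3d, and in 7.15% of all 32851 windows, and TTATGNAA was in 0 of the 8 and in 3.38% of all. Counted from the start of the gene, the match begins at base -104 in Ppp1r3c and at base -226 in Ppp1r3d. Ppp1r3g had neither string in its window. The 250 bases before each of the 3 genes are shown 5′ to 3′ on the strand of the gene, at chr13:35967656-35967905 (plus), chr19:36736605-36736854 (minus) and chr2:178414464-178414713 (minus) of GRCm38.p6, with the E-box in capitals.
Ppp1r3g: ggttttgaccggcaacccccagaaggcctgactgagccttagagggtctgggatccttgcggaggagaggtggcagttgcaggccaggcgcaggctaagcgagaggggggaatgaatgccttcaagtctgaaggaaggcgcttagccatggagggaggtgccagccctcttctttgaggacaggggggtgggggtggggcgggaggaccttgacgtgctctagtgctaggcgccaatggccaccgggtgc
Ppp1r3c: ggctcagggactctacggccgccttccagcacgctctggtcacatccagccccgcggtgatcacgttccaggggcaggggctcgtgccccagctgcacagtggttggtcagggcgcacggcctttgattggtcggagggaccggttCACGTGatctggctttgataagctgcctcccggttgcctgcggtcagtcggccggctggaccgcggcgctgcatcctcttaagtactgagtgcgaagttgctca
Ppp1r3d: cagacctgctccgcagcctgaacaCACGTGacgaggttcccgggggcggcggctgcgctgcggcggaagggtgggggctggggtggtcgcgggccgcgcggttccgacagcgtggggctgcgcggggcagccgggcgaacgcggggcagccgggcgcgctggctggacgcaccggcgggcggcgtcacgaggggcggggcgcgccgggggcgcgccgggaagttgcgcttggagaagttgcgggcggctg
The 2 windows with an E-box belong to genes whose KO minus WT differences have opposite signs, and a match is a description of these letters only.

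Gys2, liver glycogen synthase, extends the glucose chains of liver glycogen. Its 1 probe, A_51_P440315 at chr6:142510377-142510436 on the minus strand, read 3.70 and 3.71 in KO ENU, 4.74 and 4.75 in WT ENU, 4.69 and 4.73 in KO vehicle and 6.32 and 6.33 in WT vehicle. KO lay below WT and ENU below vehicle in every pair, with KO ENU the lowest sample, and WT ENU and KO vehicle were nearly level. Its KO minus WT difference was -1.04 ± 0.010 log2 after ENU and -1.61 ± 0.030 on vehicle, or 2.05-fold and 3.06-fold lower. Quantile normalisation moved these to -0.52 and -0.97. ENU minus vehicle was -1.0 in KO and -1.58 in WT.

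Gbe1, the branching enzyme, inserts the branch points of the particle. Its 1 probe, A_51_P273684 at chr16:70563084-70563143 on the plus strand, read 2.38 and 2.39 in KO ENU, 3.90 and 3.81 in WT ENU, 2.52 and 2.52 in KO vehicle and 4.11 and 4.09 in WT vehicle. The samples formed a low KO pair and a high WT pair, with ENU and vehicle close together in each. The genotype difference, KO minus WT, was -1.47 ± 0.065 log2 after ENU and -1.58 ± 0.015 on vehicle, or 2.77-fold and 2.98-fold lower, and ENU minus vehicle was -0.14 in KO and -0.24 in WT.

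Ugp2 makes UDP-glucose, the donor that Gys2 uses. The brighter of its 2 probes, A_52_P42242 at chr11:21275271-21280897 on the minus strand, a span longer than a probe and so across a splice junction, read 2.48 and 2.46 in KO ENU, 3.52 and 3.51 in WT ENU, 2.24 and 2.27 in KO vehicle and 3.06 and 3.06 in WT vehicle. Both KO samples lay below both WT samples. KO minus WT was -1.04 ± 0.015 log2 after ENU, 2.06-fold lower, and -0.81 ± 0.020 on vehicle, under 2-fold. The other probe, A_51_P475580 at chr11:21273287-21273346, gave differences of the same sign and smaller size, -0.73 after ENU and -0.36 on vehicle, so the call of Ugp2 as lower after ENU rests on the brighter probe. That call also depended on the scaling. After ENU the brighter probe gave -0.75 under quantile normalisation and -0.99 with normexp, both under 2-fold, and -1.23 with median centring.

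Pygl, liver phosphorylase, breaks the chains down. Its brighter probe, A_51_P452779 at chr12:68131860-68131919 on the minus strand, read 6.06 and 5.99 in KO ENU, 6.79 and 6.78 in WT ENU, 5.30 and 5.33 in KO vehicle and 6.33 and 6.34 in WT vehicle. KO lay below WT in each pair and ENU above vehicle in each genotype, which for the second contrast is the reverse of Gys2. Between genotypes, KO minus WT was -0.76 ± 0.048 log2 after ENU and -1.02 ± 0.015 on vehicle, the last 2.03-fold lower, and quantile normalisation moved these to -0.10 and -0.33. The other probe, A_52_P320181 at chr12:68145287-68145346, read -0.68 and -0.70 in KO ENU, 0.80 and 0.80 in WT ENU, -0.49 and -0.45 in KO vehicle and 0.20 and 0.28 in WT vehicle. On it the larger genotype difference was the one after ENU, -1.49 against -0.71 on vehicle, and ENU minus vehicle was negative in KO at -0.23 and positive in WT at 0.55.

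Phka2 is the regulatory alpha subunit of liver phosphorylase kinase and is X-linked. Its brightest probe, A_52_P671916 at chrX:155364587-155364646 on the plus strand, read 2.29 and 2.30 in KO ENU, 2.37 and 2.40 in WT ENU, 1.75 and 1.74 in KO vehicle and 1.28 and 1.30 in WT vehicle. Both ENU samples lay above both vehicle samples, and WT vehicle was the lowest. Between genotypes, KO minus WT was -0.09 ± 0.023 log2 after ENU and 0.46 ± 0.012 on vehicle, under 2-fold in both, and the sign after ENU was positive under quantile normalisation and with the mean of all probes. ENU minus vehicle was 0.55 in KO and 1.09 in WT, the last 2.13-fold higher.

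The other Phka2 probes put KO further above WT on vehicle. A_52_P657963 at chrX:155304105-155304164 read 0.24 and 0.22 in KO ENU, 0.11 and 0.11 in WT ENU, -0.08 and -0.01 in KO vehicle and -1.24 and -1.35 in WT vehicle. The other 3 groups thus lay close together and WT vehicle apart below them, and KO minus WT on vehicle was 1.25 log2, past 2-fold where the brightest probe was not. The dim probes A_52_P187217 and A_51_P368950, at chrX:155328668-155328727 and chrX:155278113-155278172, gave 0.37 and 0.11 log2 after ENU. A_52_P187217 was not well above background in WT vehicle, where KO was at least 1.62-fold higher, and A_51_P368950, well above background on 1 of 2 arrays in each WT group, gave 0.78 on vehicle. All 4 probes had KO above WT on vehicle, and after ENU none of the 4 differed by 2-fold.

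**Figure D3:**
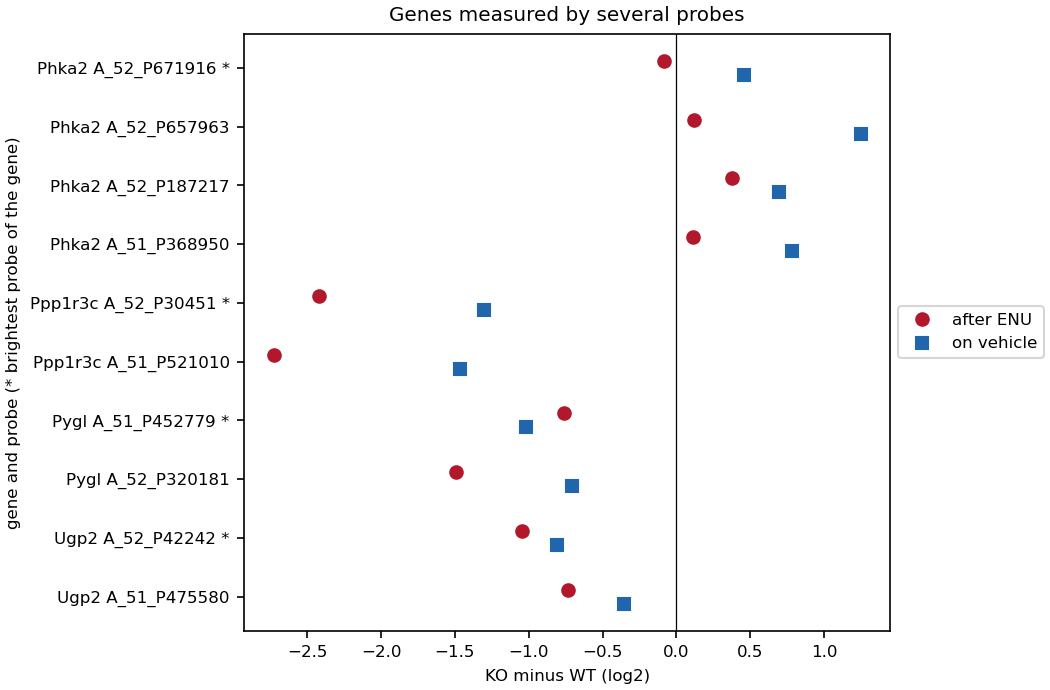
KO minus WT in log2 (x axis) for each probe of the 4 genes measured by more than 1 probe (y axis), after ENU (red circles) and on vehicle (blue squares). The probes of Ppp1r3c, Pygl and Ugp2 all lie below 0, and those of Phka2 lie above 0 on vehicle and near 0 after ENU.

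The ENU contrast averaged over genotypes could be tested for the genes other than Ppp1r3g, within the limit that slide and ENU coincide. In single comparisons within KO, ENU minus vehicle was 2-fold or more higher in 0 of the 9 genes and lower in 1, Gys2, where 4.33% and 5.41% of all genes were. Within WT, 2 genes were higher, Ppp1r3c and Phka2, and 2 were lower, Ppp1r3g and Gys2, where 7.18% and 5.49% of all genes were. The medians of the 9 differences were 0.11 in KO and 0.45 in WT, against -0.06 and -0.04 over all genes. In limma over the 4 RNA samples, 0 of the 18171 genes (0%) passed for ENU, and 3993 had an unadjusted p under 0.05.

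Of the 8 genes other than Ppp1r3g, 4 had an unadjusted p under 0.05 in limma, where 3993 of all 18171 genes did. None of the 8 had an adjusted p under 0.05, with adjusted p between 0.159 and 0.678. Gys2 had the lowest, with an average ENU minus vehicle difference of -1.29 ± 0.232 log2 (SE; limma adjusted p = 0.159), lower after ENU in both genotypes. Ppp1r3b had -0.74 ± 0.182 (limma adjusted p = 0.174), Phka2 0.82 ± 0.227 (limma adjusted p = 0.185) and Pygl 0.58 ± 0.192 (limma adjusted p = 0.210), each with the same sign in both genotypes on the brightest probe. Other probes of Pygl and Phka2 did not all do so. Pygl A_52_P320181 gave -0.23 in KO and 0.55 in WT. The dim Phka2 probe A_51_P368950 gave -0.92 in KO and -0.25 in WT. Phka2 A_52_P657963 gave 0.27 in KO and 1.40 in WT, and A_52_P187217 gave 0.39 and 0.71. For Ppp1r3g the average was -2.18 log2, and no test is given. The only residual of this fit is how far the ENU differences in KO and WT depart from each other, which for Ppp1r3g is the opposite genotype difference that led to the choice.

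The other genes of glycogen and hepatic glucose metabolism were described from a list of 29, of which 26 were tested and Phka1, Phkg1 and Ppp1r3e were too dim. In limma over the 4 RNA samples, 4 of the 26 rose in KO and 3 fell, where 16.9% and 15.3% of all 18171 genes did. Those that rose were Pygb, Gys1, Pygm and Pgm2l1, and those that fell were G6pc, Pgm1 and Slc2a2. Pgm2l1, Pgm1 and Slc2a2 are named because these counts are small, after their values were seen. The median KO minus WT over the 26 was 0.03 after ENU and -0.34 on vehicle, and after ENU it was -0.15 with median centring and -0.16 with normexp. Of the genes tested, 3063 rose and 2780 fell, or 52.4% higher among those called. This share was 35.9% with median centring, 36.4% with normexp and 36.6% among genes well above background on all arrays, but 58.6% under quantile normalisation.

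G6pc, the glucose-6-phosphatase that lets glucose leave the hepatocyte, read 5.76 and 5.71 in KO ENU, 6.86 and 6.88 in WT ENU, 5.56 and 5.52 in KO vehicle and 6.77 and 6.76 in WT vehicle. Both KO samples lay below both WT samples, by 2.20-fold after ENU and 2.34-fold on vehicle. It fell by 1.18 ± 0.182 log2 (SE; limma adjusted p = 0.022), with -1.14 after ENU and -1.22 on vehicle. Pgm1, phosphoglucomutase, fell by 1.01 ± 0.182 (limma adjusted p = 0.027) and the glucose transporter Slc2a2 by 0.74 ± 0.181 (limma adjusted p = 0.0496), each with KO below WT in both pairs and Slc2a2 by under 2-fold in both. Under quantile normalisation the 3 differences were -0.50, -0.35 and -0.32 and none passed. Quantile normalisation thus moved these bright genes toward 0, as it did Gys2 and Pygl, without a change of sign.

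The enzyme isoforms of other tissues differed from the liver isoforms in the opposite direction. Pygb, the brain isoform of phosphorylase, read 1.76 and 1.83 in KO ENU, -1.76 and -1.89 in WT ENU, -0.02 and 0.03 in KO vehicle and -3.27 and -3.40 in WT vehicle on its brightest probe, A_52_P350664. Every KO array lay above every WT array, by 12.3-fold after ENU and 10.1-fold on vehicle, and Pygb rose by 3.48 ± 0.194 log2 (SE; limma adjusted p = 0.010). In each genotype ENU also lay above vehicle, by 1.79 log2 in KO and 1.51 in WT. With normexp KO minus WT of Pygb was 3.12 after ENU and 2.09 on vehicle, and ENU minus vehicle was 1.73 in KO and 0.70 in WT.

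Gys1, the muscle and general isoform of glycogen synthase, read -2.73 and -2.73 in KO ENU, -5.13 and -4.51 in WT ENU, -3.31 and -3.33 in KO vehicle and -4.83 and -4.50 in WT vehicle. It was well above background in both KO groups, on 1 array of WT ENU and on neither of WT vehicle, and on vehicle its KO level was at least 2.54-fold that of WT. Its average genotype difference over both treatments was 1.72 ± 0.262 log2 (SE; limma adjusted p = 0.021). With normexp its differences were 0.59 after ENU and 0.09 on vehicle and it did not pass. Pygm, the muscle phosphorylase, was not well above background in either WT group and was at least 2.60-fold higher in KO after ENU and at least 2.03-fold on vehicle. Its average genotype difference was 1.2 ± 0.202 log2 (SE; limma adjusted p = 0.025), but with normexp the difference on vehicle was -0.23 and it did not pass. Pgm2l1, a glucose-1,6-bisphosphate synthase, rose by 1.1 ± 0.221 (SE; limma adjusted p = 0.034), with 1.35 log2 after ENU and 0.85 on vehicle. Of the isoform pairs, that of Gys2 and Gys1 and that of Pygl and Pygb thus had opposite signs in both treatments. The brightest Pygb probe was well above background in all 4 groups, though its size on vehicle depended on the background correction, while Gys1 was dim in WT.

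**Figure D4:**
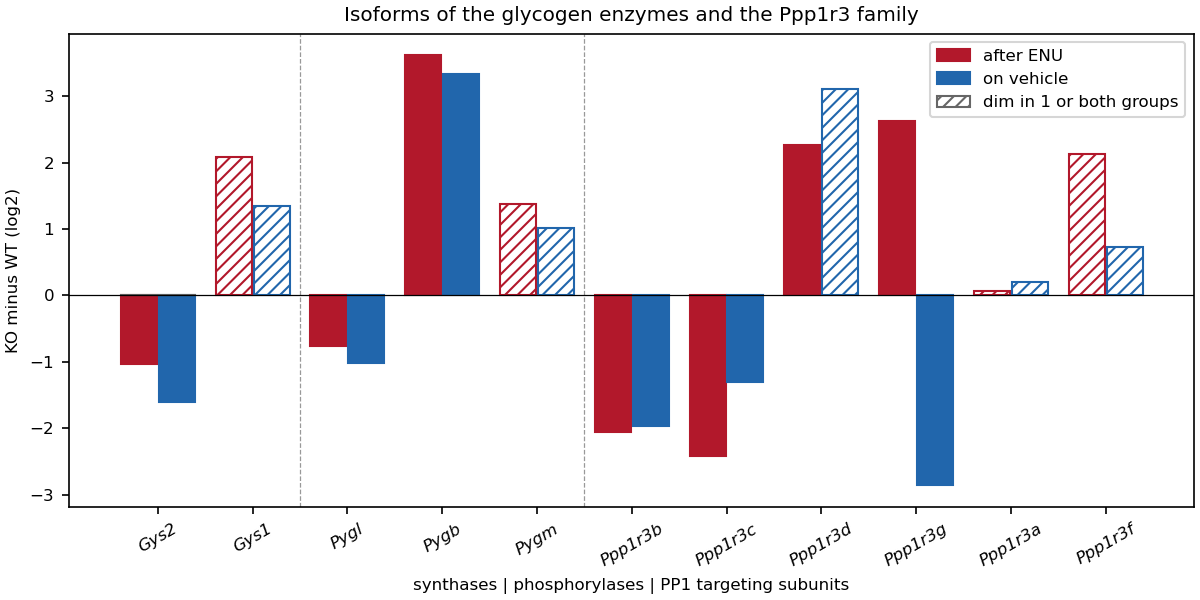
KO minus WT in log2 (y axis) after ENU (red, left of each pair) and on vehicle (blue, right) for the synthases, the phosphorylases and the tested Ppp1r3 subunits (x axis); hatched bars have 1 or both groups not well above background on both arrays. Gys2 and Pygl lie below 0 and Pygb above 0 in both treatments, and Ppp1r3g is the subunit with bars on both sides, 2.63 after ENU and -2.86 on vehicle.

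Markers of several liver cell types differed between genotypes, and these values stand beside all the differences above. Over all 18171 genes 16.9% rose and 15.3% fell, and the hepatocyte and endothelial counts below are near the share that fell. With median centring 4891 of all genes fell, with normexp 4153 and under quantile normalisation 1919. The summed signal of the 9 measured hepatocyte markers, as a multiple of the 75th percentile, was 3387 to 3616 over the KO arrays and 4852 to 5158 over the WT arrays, and 2 of the 9, Ttr and Apoc3, fell. The hepatocyte count depended on the scaling, with 6 fallen under median centring, 5 with normexp and 0 under quantile normalisation, where the median KO minus WT was -0.09 after ENU and 0.04 on vehicle, in place of -0.56 in both. Neutrophil and myeloid progenitor markers summed to 35.6 to 49.6 in KO and 4.69 to 7.32 in WT, and 10 of 11 rose. Cholangiocyte markers summed to 63.9 to 66.2 in KO and 6.57 to 9.15 in WT, and 7 of 8 rose, and 6 of 10 macrophage and 4 of 9 stellate markers rose. Of 5 skeletal muscle markers 0 rose, and their sum was 0.317 to 0.573 in KO and 0.331 to 0.483 in WT. Of 5 adipocyte markers 2 rose and 1 fell. Of 8 endothelial markers 0 rose and 1 fell, with 4 fallen under median centring, 4 with normexp and 0 under quantile normalisation. The part of these shifts in the glycogen gene differences was not tested, and in bulk RNA fewer cells of a type and less RNA per cell cannot be told apart.

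Lists of fasting and insulin response genes and of clock genes were read beside Ppp1r3g, whose transcript follows feeding in mice. Of 11 tested fasting and insulin response genes, 1 rose in KO and 0 fell, where 16.9% and 15.3% of all genes did: Igfbp1, an insulin-repressed secreted binding protein, read 7.70 and 7.71 in KO ENU, 6.46 and 6.46 in WT ENU, 7.39 and 7.45 in KO vehicle and 6.58 and 6.56 in WT vehicle. It rose by 1.05 ± 0.207 log2 (SE; limma adjusted p = 0.033) and lay above WT in both pairs, by 2.38-fold after ENU and 1.80-fold on vehicle. The median KO minus WT of the 11 genes was -0.40 after ENU and -0.31 on vehicle, and the median after ENU was 0.26 under quantile normalisation. Between treatments in KO, 1 of the 11 was higher and 2 were lower after ENU, with a median of -0.18, where 4.33% and 5.41% of all genes were. In WT 1 was higher and 5 were lower, with a median of -0.68, where 7.18% and 5.49% of all genes were. With median centring 1 of the 11 rose and 3 fell, where 2738 and 4891 of all 18171 genes did. With normexp 2 rose, where 2376 of all genes did.

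Of 15 tested clock genes, 0 rose in KO and 2 fell, near the 15.3% of all genes that fell: Cry1, a repressor of the clock, by 0.92 ± 0.201 log2 and Nfil3, a repressor at D-boxes, by 0.98 ± 0.213 (SE; limma adjusted p = 0.040 and 0.039, and 0.04 and 0.08 under quantile normalisation). In single comparisons after ENU, 4 of the 15 were higher in KO and 1 was lower, where 16.2% and 14.2% of all genes were. On vehicle 0 were higher and 8 were lower, where 17.3% and 11.1% of all genes were. The median KO minus WT was -0.04 log2 after ENU and -1.03 on vehicle. Between treatments, 1 of the 15 was higher and 4 were lower after ENU than on vehicle in KO, with a median of -0.44, where 4.33% and 5.41% of all genes were. In WT 3 were higher and 10 lower, with a median of -1.43, where 7.18% and 5.49% of all genes were. Ciart, Per3 and Npas2 enter these counts although they were not well above background in some groups.

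Dbp, a transcription factor whose transcript cycles strongly through the day in liver, was the gene whose 4 group means were most like those of Ppp1r3g. Likeness was the root mean square distance between the group means, each centred on the mean of its gene, and was 0.473 log2 for Dbp. Dbp read 2.69 and 2.66 in KO ENU, 0.82 and 0.83 in WT ENU, 2.50 and 2.49 in KO vehicle and 4.48 and 4.46 in WT vehicle. It had the order of Ppp1r3g, WT vehicle highest and WT ENU lowest with both KO groups between, and no groups overlapped. KO minus WT was 1.85 log2 after ENU and -1.98 on vehicle, and ENU minus vehicle was 0.18 in KO and -3.65 in WT.

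The next genes in likeness were A_52_P925038 and AK084691, which the files give no symbol, at 0.549 and 0.592, then Cilp, a cartilage matrix protein, at 0.668 and Tmeff1, a transmembrane protein, at 0.715. None of these 4 was well above background in WT ENU, so their levels there are at the background. Tmeff1 was well above background only in WT vehicle, and AK084691 only there and on 1 KO vehicle array. The order of their other groups is therefore not resolved. With normexp KO minus WT after ENU was -0.20 for Tmeff1 and -0.21 for AK084691, the opposite sign to Ppp1r3g. It was 0.44 for A_52_P925038 and 0.39 for Cilp. Dbp is the only one of the 5 that was well above background on all 8 arrays. The distances are over 4 RNA samples and carry no test.

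**Figure D5:**
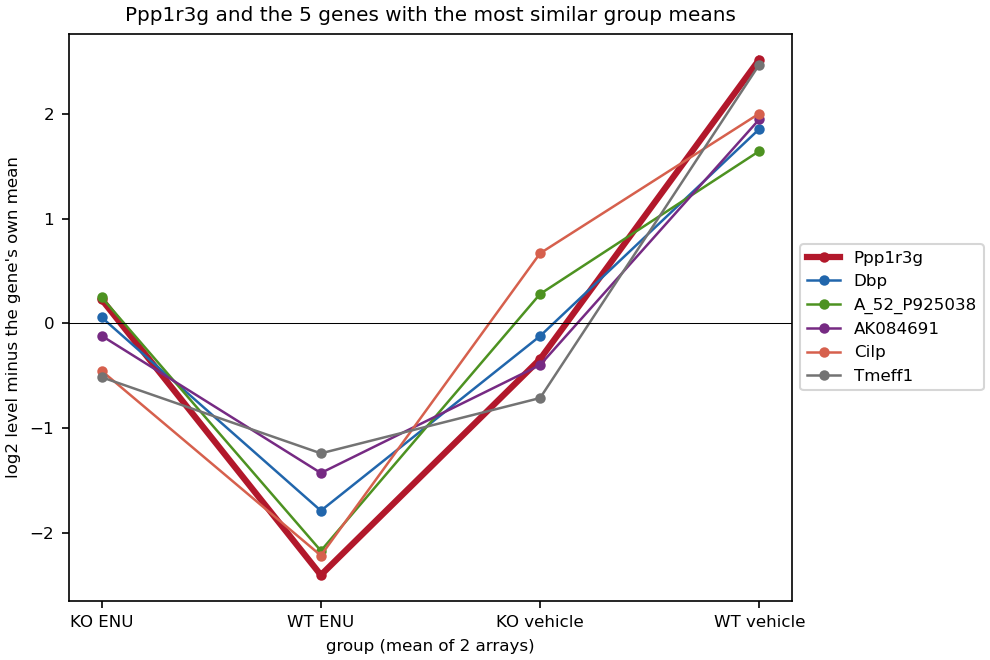
Mean log2 level of each group, less the gene's own mean (y axis), in KO ENU, WT ENU, KO vehicle and WT vehicle (x axis) for Ppp1r3g (thick red line) and the 5 genes with the most similar means. All 6 lines are highest in WT vehicle and lowest in WT ENU, and of the 5 only Dbp was well above background in every group. Tmeff1 was well above background only in WT vehicle, and AK084691 only there and on 1 KO vehicle array, so the order of their other groups is not resolved.

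The period genes, named after their values were seen, showed part of this order. Per1 read 0.86 and 0.93 in KO ENU, -1.82 and -1.77 in WT ENU, 1.49 and 1.53 in KO vehicle and 1.87 and 1.90 in WT vehicle. Per2 read -1.58 and -1.64 in KO ENU, -2.96 and -2.73 in WT ENU, 0.39 and 0.38 in KO vehicle and 0.63 and 0.68 in WT vehicle on its brightest probe. Per1 and Per2 had WT ENU as the lowest group, with KO minus WT of 2.69 and 1.23 log2 after ENU. Both had KO and WT within 2-fold on vehicle, at -0.37 and -0.27. The second Per2 probe, A_52_P536869, had KO below WT after ENU, so the probes of Per2 disagree. Per3 was not well above background in WT ENU and was at least 2.84-fold higher in KO after ENU, 0.15 log2 with normexp, and 2.04-fold lower on vehicle. The labels do not give the time of day or the feeding state at which livers were collected, and the part of the clock genes' differences in those of Ppp1r3g was not tested.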

How the data were processed

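Total liver RNA was labelled with Cy3 and hybridised to 8 one-colour Agilent mouse arrays. The arrays' deposited intensity was made by Agilent Feature Extraction, version 10.7.1.1 per the file headers and 10.5.1 per the submitters' processing notes. The authors' processed signal, already background-corrected, was used, and the deposited mean and background intensity served for an alternative. Coordinates of probes were read from the deposited tables (mm7, NCBI35), and exons or UTRs were not assigned on that build. Symbols were updated with RefSeq's GRCm38.p6 table, where 22944 probes matched on an accession, 6664 on a symbol and 3108 on an older symbol. The other 8458 are named as deposited.

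From the deposited intensity, control and outlier spots were dropped, each processed signal was divided by its array's 75th percentile, log2 was taken, and spots of a probe were averaged. Probes well above background on both arrays of 1 group or more were tested, with the brightest probe taken for each of the resulting 18171 genes. Where a group was not well above background on either array, the fold is a bound, "at least", against the dim probe's own signal or the array's lowest signal well above background, whichever was higher. The bound holds for the processed signal. The 2 arrays of a group were averaged, since they differed by no more than spot noise over 144 to 178 probes spotted at least 5 times. limma 3.58.1 in R 4.3.3 was fitted to the 4 RNA samples as an additive model of genotype and treatment. On simulated data its recovery of changed genes depended on the setting. With a spread that varied between genes and 200 changed, it recovered 0% of changes of 1 log2, 3.51% of 2 log2 and 94.4% of 4 log2. With 6000 changed these were 72.3%, 96.9% and 99.8%, with 221 false calls. With the same spread for every gene and 200 changed they were 88.2%, 100% and 100%. P-values rest on the 1 residual of this fit, how far the ENU differences in KO and WT depart from each other. limma pools that residual with those of all genes. They do not measure the spread between animals, and the number of samples limits the precision.

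The 9 genes and all lists were chosen with earlier results of these data known, and 1 listed gene is not reported here. The genes named beside the 9 were up to 4 called genes of each list with the largest average genotype difference, the other Ppp1r3 genes and enzyme isoforms, and the 5 genes most like Ppp1r3g, and exceptions are marked as chosen after their values were seen. Alternatives were quantile normalisation, median centring, normexp with an offset of 50, the mean of all probes, a filter over all 8 arrays, no filter, an intensity trend and each array left out.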

Additional observations from a re-analysis of the deposited data

Results flagged for a closer look

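These results had differences of opposite sign in the 2 groups compared, on both arrays of each group. In each case the difference was not tested, since each group was counted as 1 RNA sample. For Ppp1r3g, KO minus WT was 2.63 after ENU and -2.86 on vehicle, a difference of 5.49 log2, which is also the difference between ENU minus vehicle in KO, 0.57, and in WT, -4.92. For Dbp, the corresponding difference was 3.82, with KO minus WT of 1.85 after ENU and -1.98 on vehicle.

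For Phka2 on A_52_P671916, KO minus WT was -0.09 after ENU and 0.46 on vehicle, a difference of -0.54. For Per1, KO minus WT after ENU exceeded that on vehicle by 3.06 log2, and for Per2 on A_51_P282760 by 1.5 log2.

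For Ppp1r3d, ENU minus vehicle was -0.22 in KO and 0.64 in WT, a difference of -0.86. For Pygl on A_52_P320181, it was -0.23 in KO and 0.55 in WT, a difference of -0.78, while the brighter Pygl probe had the same sign in both. For Igfbp1, it was 0.29 in KO and -0.11 in WT, a difference of 0.40.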

How the results depend on the processing

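Of 250 recomputed genotype differences of the 9 genes, 193 moved by no more than the SD of the repeat arrays, 55 moved further with the same sign and 2 reversed. Much of the 193 was fixed in advance, since leaving out 1 array cannot move a difference by more than that SD. The changed filters returned the same values, as did the mean of all probes for genes with 1 probe. The 193 is therefore no measure of robustness to processing. Both reversals were Phka2 after ENU, 0.13 with quantile normalisation and 0.13 with the mean of all probes. Ppp1r3g after ENU was 2.57 with quantile normalisation, 2.45 with median centring and 2.09 with normexp, and on vehicle -2.72, -3.09 and -2.66. Without any 1 array it was 2.62 to 2.64 after ENU and -2.87 to -2.86 on vehicle. Median centring moved the median KO minus WT of all genes to -0.28 after ENU and -0.37 on vehicle, a shift shared by all genes. More than 1.5-fold moves were those of Gys2 on vehicle (-0.97) and Pygl (-0.10 after ENU, -0.33 on vehicle) with quantile normalisation and of Ppp1r3d (1.44 and 1.87) with normexp. Ppp1r3d has no value with the filter over all 8 arrays. Its average ENU difference reversed to -0.026 with normexp. Of 119 recomputed ENU values of the 8 genes other than Ppp1r3g, 0 passed limma, with a lowest adjusted p of 0.0726. The count of all genes called for ENU was 3 with normexp, 3 with the filter over all 8 arrays and 4 with an intensity trend, against 0. Of the 26 other glycogen genes, 13 were called for genotype with median centring, 11 with an intensity trend and 5 with quantile normalisation, against 7, and 5 to 7 without 1 array. These counts followed those of all 18171 genes. With median centring 2738 of all genes rose and 4891 fell, with an intensity trend 3196 and 3712. With quantile normalisation 2713 rose and 1919 fell, against 3063 and 2780. Over all genes, 5233 to 5928 were called for genotype without 1 array. The causes of these moves were not tested. No paired analysis was possible because the letters a and b mark repeat arrays of 1 RNA sample, which were averaged. The number of arrays and the dim probes of Ppp1r3d, Gys1, Pygm and Per3 in WT limit what can be resolved.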
